A study of Mus musculus with 4 samples.

Results

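Phlpp1 and 8 further genes of the PI3K, Akt and Foxo axis were followed across RNA-seq libraries of regulatory T (Treg) cells, a T cell lineage set by Foxp3 that keeps other immune cells in check. The genes were taken by name, with earlier results of these data known, and all 9 were listed, among 14220 genes in all. They are the Akt phosphatase Phlpp1, the lipid phosphatase gene Inpp5d, the PI3K inhibitor Pik3ip1, the PI3K subunit genes Pik3cd and Pik3r1, the kinases Akt1 and Akt2, and the transcription factors Foxo1 and Foxo3. The 9 genes had 19 of the 19291 transcript rows, and for each gene the row of highest mean was used. The cells came from spleens of C57BL/6 mice. The Treg cells of 1 group carried a conditional knockout of Nsd2 (cKO, 2 libraries), and the other group was wild type (WT, 2 libraries). The Nsd2 enzyme dimethylates lysine 36 of histone H3. RNA of 3 or more mice was pooled for every library, so p-values measure the spread between pools, which may be partly technical. Neither the Cre driver nor the deleted exons nor the age of the mice is stated in the labels. The single comparison of the design was cKO against WT, which asks how the Treg transcriptome differs after deletion of Nsd2.

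PI3K phosphorylates a membrane lipid to PIP3, which recruits Akt to the membrane, where upstream kinases activate it. Active Akt phosphorylates Foxo factors, and 14-3-3 proteins then hold them in the cytoplasm. Brakes act at several steps: the Inpp5d product SHIP1 removes PIP3, Pik3ip1 binds and restrains PI3K, and PHLPP phosphatases dephosphorylate Akt. In Treg cells Foxo1 and Foxo3 are required for normal development and function, and PI3K and Akt activity is held low. These steps run on proteins and phosphates, and RNA levels do not measure them.

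Values are RPKM, reads scaled by transcript length and library size. The step between low values gave a depth of about 19130000 to 21265000 reads per library. Nsd2 itself stood at 3.46 and 4.27 RPKM in cKO and at 6.82 and 7.44 RPKM in WT. In cKO, 54.2% of the mean WT signal thus remained, and whether these reads come from the deleted part cannot be told from a value per transcript. The 7 Treg defining markers (Foxp3, Il2ra, Ctla4, Ikzf2, Cd3e, Cd4 and Tnfrsf18) were all present, with a summed level of 973 and 1039 RPKM in cKO and 971 and 1007 RPKM in WT. Markers of other cells were low beside these. The 3 B cell markers measured, of 8 listed, summed to 11.7 and 10.8 RPKM in cKO and to 8.46 and 6.78 RPKM in WT, so the groups did not overlap. The 7 macrophage and myeloid markers measured, of 9 listed, summed to 21.9 and 6.50 RPKM in cKO and to 7.06 and 10.5 RPKM in WT. The 5 CD8 T and NK cell markers measured, of 7, summed to 17.7 and 19.4 RPKM in cKO against 19.8 and 15.4 RPKM in WT. The 4 erythroid markers measured, of 5, summed to 42.7 and 7.32 RPKM in cKO against 24.3 and 11.4 RPKM in WT. Other listed markers were not analysed here. The part of these cells in the results was not tested, and in bulk RNA fewer cells of a type and less RNA per cell cannot be told apart.

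Among the 9 genes the differences were uneven. Phlpp1 and Pik3ip1, which restrain Akt and PI3K, stood at 56.6% and 61.0% of their WT means in cKO Treg cells. Pik3r1 stood at 79.2% and Inpp5d at 87.7% of the WT mean. Akt1, Akt2, Pik3cd, Foxo1 and Foxo3 lay between 88.8% and 116% of WT. The limma test across all genes called nothing: 0 of 10709 genes, 0% of those tested, had an adjusted p under 0.05, and each of the 9 genes had an adjusted p of 0.9998. At an unadjusted p under 0.05 limma had 332 genes, 3.1% of those tested, and 3 of the 9 genes (Phlpp1, Pik3ip1 and Pik3r1) were among them, all lower in cKO, where 0.99% of all genes were lower and 2.11% higher. Without trend and robust moderation limma called 0 genes as well, with 360 at an unadjusted p under 0.05.

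The groups did not overlap for 6 of the 9 genes, against 26.4% of all genes tested. Because the 9 genes were chosen with earlier results known, this count and that at unadjusted p are descriptions and no independent evidence. In 4 of these both cKO libraries lay below both WT libraries (Phlpp1, Pik3ip1, Pik3r1 and Inpp5d), where 9.06% of all genes did so. In the other 2, Akt1 and Foxo1, both cKO libraries lay above, where 17.4% of all genes did so. With median-of-ratios scaling of the libraries only 4 genes stayed apart: Akt1 then overlapped, with the lower cKO library at 45.0 RPKM and the higher WT library at 45.9 RPKM. Foxo1 overlapped too, at 66.1 and 66.9 RPKM in cKO and 58.2 and 66.8 RPKM in WT. The 26.4% of all genes belongs to the unscaled values, and the share under this scaling is not given here. With 2 libraries against 2, an exact two-sided permutation test of a single gene cannot go below p = 0.333.

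**Figure D1:**
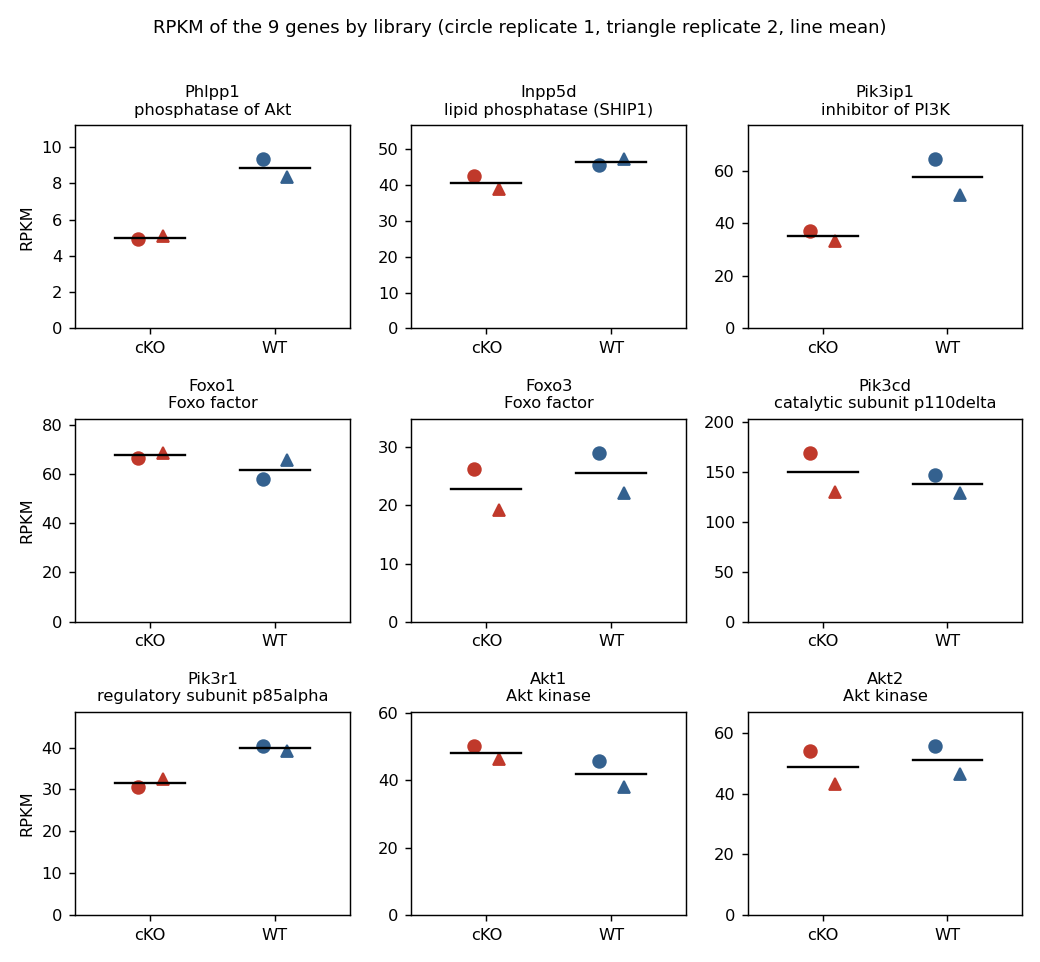
RPKM of each of the 9 genes (vertical axes from 0) in the 2 cKO libraries, left, and the 2 WT libraries, right; circles are replicate 1, triangles replicate 2 and lines are means. Phlpp1 at 4.92 and 5.07 RPKM in cKO lies clear of 9.32 and 8.33 RPKM in WT, while Foxo3, Pik3cd and Akt2 overlap between the groups.

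Phlpp1 (GRCm38 chromosome 1, 106171869 to 106394245) encodes a phosphatase that removes the phosphate from the hydrophobic motif of Akt. It stood at 4.92 and 5.07 RPKM in the cKO libraries and at 9.32 and 8.33 RPKM in the WT libraries. The libraries of each group were close to each other and the groups lay well apart. The means were 4.99 ± 0.108 RPKM in cKO and 8.83 ± 0.697 RPKM in WT (SD, n = 2 each), a mean 1.77-fold lower in cKO. On the log2(RPKM + 1) scale, which understates differences of low genes, the difference was -0.71 with a standard error of 0.13 and a 95% interval from limma of -1.04 to -0.38. Replicate 1 of cKO minus replicate 1 of WT gave -0.80, and replicate 2 gave -0.62. Of all genes tested, 0.346% had a lower value, and Phlpp1 ranked 16 of 10709 by unadjusted p in limma. Its difference was known when it was chosen, so this rank and the interval are descriptions. All limma intervals given here are per gene and not adjusted for the 10709 genes tested. About 588 and 671 reads stood behind the cKO values and 1132 and 992 behind the WT values, so counting error was at most 4.12% per library. The related phosphatase Phlpp2 was barely expressed, at 1.06 and 1.32 RPKM in cKO and 1.31 and 1.49 RPKM in WT, and its groups overlapped.

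Pik3ip1 (chromosome 11, 3319241 to 3342971) encodes a membrane protein that binds the catalytic subunit of PI3K and lowers its activity in T cells. It stood at 37.0 and 33.1 RPKM in cKO and at 64.4 and 50.6 RPKM in WT. Both cKO libraries lay below both WT libraries, and the WT pair was spread more widely. The means were 35.03 ± 2.76 RPKM in cKO and 57.5 ± 9.73 RPKM in WT (SD, n = 2 each), 1.64-fold lower in cKO. The log2 difference was -0.69 with a 95% interval from limma of -1.09 to -0.29, and 0.392% of all genes had a lower value. By number the differences were -0.78 and -0.60, so the sizes for Pik3ip1 and Phlpp1 were alike in both pairs of libraries.

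Inpp5d (chromosome 1, 87620312 to 87720510) encodes SHIP1, which takes the 5-phosphate off PIP3 in blood cells. It stood at 42.4 and 39.0 RPKM in cKO and at 45.6 and 47.2 RPKM in WT. The groups did not overlap, but the gap was small: the log2 difference was -0.19 with a 95% interval from limma of -0.49 to 0.12, and 6.41% of all genes had a lower value. B cells and myeloid cells also express Inpp5d. The B cell marker sum given above was higher in cKO and the myeloid sum overlapped between groups. The part of these cells in the Inpp5d value was not tested. Of all 10709 genes tested, 6335 had a log2 difference above 0 and 4374 below, which is the background for the counts of each list. In the whole list of 17 brakes on PIP3 and Akt, 11 genes were below 0 and 6 above, with a median log2 difference of -0.03 against 0.03 for all genes tested. In 4 of the 17 the cKO libraries lay below the WT libraries and in 0 above, beside 9.06% and 17.4% of all genes. These 4 include Phlpp1, Pik3ip1 and Inpp5d, and the share without overlap in either direction was near the 26.4% of all genes. The fourth was Inpp4a, a lipid phosphatase one step further down, at 17.1 and 16.2 RPKM in cKO and 18.8 and 19.6 RPKM in WT. The PP2A subunits of the list, which form a general phosphatase that also acts on Akt, overlapped between groups in every case.

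The promoters of Phlpp1 and Pik3ip1, the pair that stood lowest in cKO, are shown to compare their sequence. They are the 250 bases before the gene start, from RefSeq on GRCm38.p6, both on the plus strand, 5′ to 3′, with each CpG in capitals. Phlpp1 is chr1:106171619-106171868 and Pik3ip1 is chr11:3330481-3330730.
Phlpp1: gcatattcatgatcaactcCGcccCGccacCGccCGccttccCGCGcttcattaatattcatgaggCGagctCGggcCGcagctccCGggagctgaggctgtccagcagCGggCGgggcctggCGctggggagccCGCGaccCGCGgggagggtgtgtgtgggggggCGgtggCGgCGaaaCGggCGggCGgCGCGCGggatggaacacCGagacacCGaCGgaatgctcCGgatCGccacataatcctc
Pik3ip1: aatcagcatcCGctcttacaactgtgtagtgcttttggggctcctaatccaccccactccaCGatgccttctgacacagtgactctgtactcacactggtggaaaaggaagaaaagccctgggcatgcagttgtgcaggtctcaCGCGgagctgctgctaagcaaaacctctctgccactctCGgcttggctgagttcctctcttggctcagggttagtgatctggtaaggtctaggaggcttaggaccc
The Phlpp1 window held 31 CpG and the Pik3ip1 window 5, where the median of all 32851 windows in the table was 6. The CpG count of the Phlpp1 window was above that of 94.8% of all windows. The Pik3ip1 window belongs to a start inside the annotated span of the gene. The Foxo core motif GTAAACA, searched on both strands (TGTTTAC on the other) over 250 bases before and 50 after the start, was in 3.65% of all windows. All 9 genes had a window, 16 in all, and 1 of the 16 held the motif, that of the outermost Akt1 start, at position -161. It is shown from chr12:112674885-112675134, minus strand, with the motif in capitals.
Akt1: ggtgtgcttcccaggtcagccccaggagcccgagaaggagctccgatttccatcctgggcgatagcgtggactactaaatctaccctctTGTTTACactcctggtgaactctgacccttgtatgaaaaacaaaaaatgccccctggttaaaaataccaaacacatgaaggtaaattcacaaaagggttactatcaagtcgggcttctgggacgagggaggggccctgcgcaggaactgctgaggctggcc
Of the 21 listed Foxo target genes, 17 had a window and 4 of these held the motif (Bcl2l11, Sesn1, Btg1 and Tcf7), against 4.05% of all genes with a window. These are matches of letters in a short window, and a window without a match says nothing of sites elsewhere.

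Pik3cd (chromosome 4, 149649168 to 149702566) encodes p110delta, the main catalytic PI3K subunit of lymphocytes. It was the most highly expressed of the 9 genes, at 169 and 129.7 RPKM in cKO and at 147 and 129 RPKM in WT. The groups overlapped, and the libraries numbered 1 were higher in both genotypes. The log2 difference was 0.11, with a 95% interval from limma of -0.32 to 0.54, and it turned to -0.08 without cKO replicate 1.

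Pik3r1 (chromosome 13, 101680761 to 101768217) encodes the p85alpha family of regulatory subunits, which stabilise p110 and hold it inactive until a receptor is engaged. It stood at 30.5 and 32.6 RPKM in cKO and at 40.4 and 39.3 RPKM in WT. Each pair was tight and the groups did not overlap. The means were 31.5 ± 1.46 RPKM in cKO and 39.9 ± 0.795 RPKM in WT (SD, n = 2 each), and the log2 difference was -0.33 with a 95% interval from limma of -0.62 to -0.03. Within a library the ratio of Pik3r1 to Pik3cd was 0.180 and 0.251 in cKO and 0.275 and 0.306 in WT. Among the 4 genes of the kinase side, Pik3r1 was the gene with both cKO libraries below both WT libraries.

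In the list of PI3K subunits and adaptors, 13 of 14 genes were tested, 5 above and 8 below 0, with a median of -0.04. In 3 the cKO libraries lay below the WT libraries and in 1 above, so 4 of 13 did not overlap, near the 26.4% of all genes. Pik3r5, the p101 regulatory subunit of PI3K gamma, stood at 32.3 and 27.1 RPKM in cKO and at 35.5 and 33.6 RPKM in WT. Pik3ap1, an adaptor best known from B cells, was the gene on the higher side. It stood at 1.67 and 1.40 RPKM in cKO and 1.18 and 0.919 RPKM in WT. The B cell marker sum given above was also higher in cKO, and a part of B cells in the Pik3ap1 value was not tested. The other class I catalytic genes were far below Pik3cd in RPKM. Pik3ca stood at 8.56 and 10.2 RPKM in cKO and 9.34 and 11.7 RPKM in WT, and Pik3cg at 7.98 and 10.5 RPKM in cKO and 8.24 and 9.72 RPKM in WT. Pik3cb was lower still, at 1.66 and 1.83 RPKM in cKO and 1.68 and 2.02 RPKM in WT.

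Akt1 (chromosome 12, 112653821 to 112674884) and Akt2 (chromosome 7, 27591552 to 27640826) encode Akt kinases. Akt1 stood at 50.2 and 46.2 RPKM in cKO and at 45.6 and 37.9 RPKM in WT. The lowest cKO library and the highest WT library were nearly level. The log2 difference of Akt1 was 0.21 with a 95% interval from limma of -0.15 to 0.57, and it was 0.08 without WT replicate 2 and 0.34 without WT replicate 1. Akt2 stood at 54.1 and 43.3 RPKM in cKO and at 55.8 and 46.6 RPKM in WT, with the groups overlapping and the libraries numbered 1 higher in each. Its log2 difference was -0.07, and it turned to 0.05 without WT replicate 1 and to 0.08 without cKO replicate 2. Among the 8 tested genes of the list of Akt and its upstream kinases, 2 were above and 6 below 0, with a median of -0.06. Pdpk1, which phosphorylates the activation loop of Akt, stood at 15.8 and 16.9 RPKM in cKO and at 15.8 and 17.1 RPKM in WT. Rictor and Mtor, which belong to the complex that phosphorylates the hydrophobic motif, differed by -0.05 and -0.07 on the log2 scale, and both overlapped between groups. Mlst8, a subunit of both mTOR complexes, stood at 9.44 and 7.86 RPKM in cKO and 7.95 and 7.43 RPKM in WT.

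Foxo1 (chromosome 3, 52268337 to 52350109) stood at 66.3 and 68.7 RPKM in cKO and at 57.8 and 65.8 RPKM in WT. The cKO libraries lay above the WT libraries by a margin smaller than the WT spread. The log2 difference was 0.13 with a 95% interval from limma of -0.19 to 0.45, and it was 0.04 without WT replicate 1 and 0.22 without WT replicate 2. Foxo3 (chromosome 10, 42181845 to 42276695) stood at 26.2 and 19.3 RPKM in cKO and at 29.1 and 22.1 RPKM in WT. Its groups overlapped, and the libraries numbered 1 were higher in both genotypes: number 2 was at 73.5% of number 1 in cKO and at 76.0% in WT. The log2 difference of Foxo3 was -0.17 with a 95% interval from limma of -0.67 to 0.34, and it turned to 0.02 without WT replicate 1 and to 0.05 without cKO replicate 2. Foxo4 stood at 17.1 and 14.6 RPKM in cKO and 18.6 and 15.0 RPKM in WT. Of the 10 tested genes of Foxo factors and their 14-3-3 partners, 4 were above and 6 below 0, with a median of -0.07. Ywhag, a 14-3-3 gene, was the gene of this list with both cKO libraries below WT, at 30.9 and 29.6 RPKM in cKO and 33.6 and 35.5 RPKM in WT. Ywhae, another, overlapped between groups at 70.6 and 77.5 RPKM in cKO and 62.1 and 72.9 RPKM in WT.

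**Figure D2:**
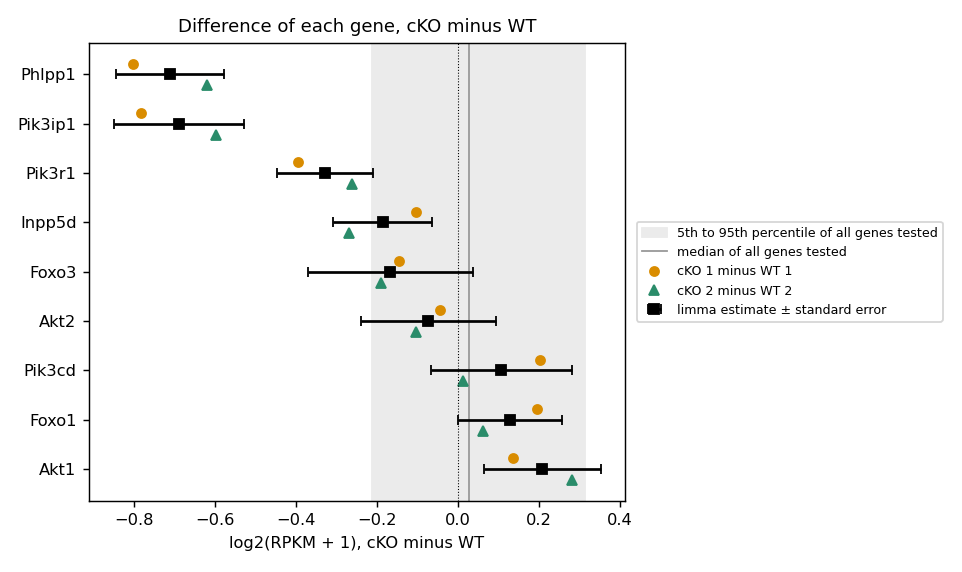
Difference in log2(RPKM + 1), cKO minus WT, for each of the 9 genes: squares with bars are limma estimates with standard errors, circles and triangles the differences between libraries of the same number, and the grey band the 5th to 95th percentile of all genes tested (-0.21 to 0.31). Phlpp1 at -0.71, Pik3ip1 at -0.69 and Pik3r1 at -0.33 lie outside the band.

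The 4 kinase-side genes (Pik3cd, Pik3r1, Akt1 and Akt2) were set against the 5 brakes and Foxo factors. The mean log2(RPKM + 1) level of the kinase side was 5.96 and 5.78 in cKO and 5.99 and 5.80 in WT, which overlapped. That of the brakes and Foxo factors was 4.82 and 4.70 in cKO and 5.15 and 5.02 in WT, with every cKO library below WT. The first minus the second was 1.15 and 1.09 in cKO against 0.843 and 0.782 in WT, a gap of 0.30 between the means. Without Phlpp1 and Pik3ip1, an alternative chosen after seeing the data, it was 0.537 and 0.521 in cKO against 0.545 and 0.406 in WT, a gap of 0.05 with the groups overlapping. The difference between the gene groups thus rested on those 2 genes. No p is given for a mean over chosen genes.

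**Figure D3:**
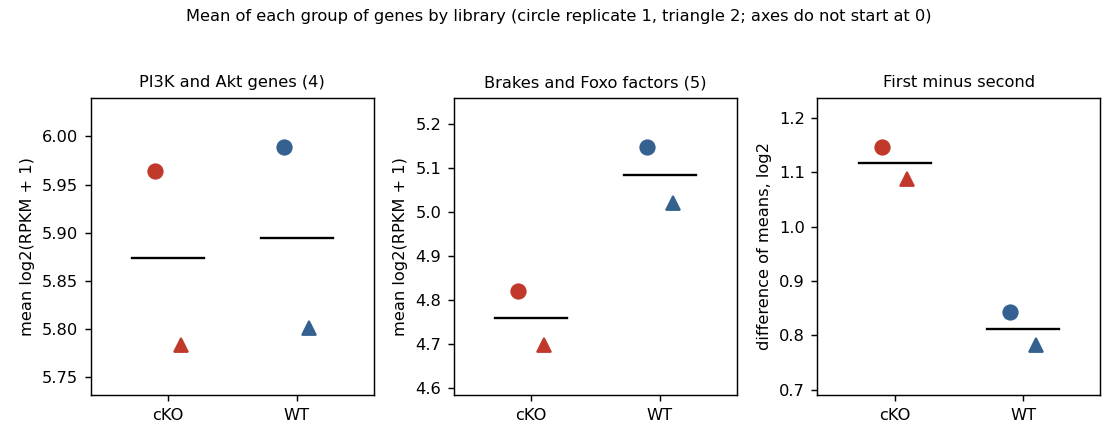
Mean log2(RPKM + 1) in each library of 4 PI3K and Akt genes (left), of 5 brakes and Foxo factors (middle) and the difference of these means (right), cKO left and WT right in each panel; lines are means and the axes do not start at 0. The middle panel separates the groups, at 4.82 and 4.70 in cKO and 5.15 and 5.02 in WT.

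The order of the levels, compared as RPKM and so per length, was similar in both genotypes at its ends. In cKO it ran from Pik3cd (mean 149.6 RPKM) through Foxo1 (67.5), Akt2 (48.7), Akt1 (48.2), Inpp5d (40.7), Pik3ip1 (35.03), Pik3r1 (31.5) and Foxo3 (22.8) to Phlpp1 (4.99), and among neighbours only the ranges of Akt2 and Akt1 overlapped. In WT it ran from Pik3cd (138) through Foxo1 (61.8), Pik3ip1 (57.5), Akt2 (51.2), Inpp5d (46.4), Akt1 (41.7), Pik3r1 (39.9) and Foxo3 (25.6) to Phlpp1 (8.83). There the ranges of every pair of neighbours from Foxo1 down to Pik3r1 overlapped, so their order is not set by these libraries. By its mean Pik3ip1 lay below Inpp5d in cKO and above Akt2 in WT, where the ranges of Pik3ip1 and Akt2 overlapped.

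Several of the genes had more than 1 transcript row. The rows of a gene differed little: the 6 Pik3cd rows had cKO to WT ratios of 1.08 to 1.09. The 2 Pik3r1 rows, NM_001024955.1 and NM_001077495.1, were within 1.26% of each other in every library. They stood at 79.2% and 79.6% of WT. The 3 Inpp5d rows stood at 87.7% to 88.3% of WT, and the 2 Akt1 rows at 116% each. Transcripts of a gene share exons, so their rows are not separate measurements.

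The 5 genes whose profile over the 4 libraries was most like that of Phlpp1 were, in order, Cpt1a, Tsc22d3, Ppp1r21, Pik3ip1 and Nsd2. Likeness was the Euclidean distance between mean-centred log2(RPKM + 1) values, among 8377 other genes whose mean RPKM reached 4, and ran from 0.071 for Cpt1a to 0.233 for Nsd2. Cpt1a, which encodes the enzyme that commits fatty acids to mitochondrial oxidation, stood at 15.6 and 16.2 RPKM in cKO and at 29.1 and 24.4 RPKM in WT. Tsc22d3, a gene known for its induction by glucocorticoids, stood at 73.2 and 83.7 RPKM in cKO and at 131 and 125 RPKM in WT. Ppp1r21 stood at 12.1 and 14.01 RPKM in cKO and at 22.5 and 18.4 RPKM in WT. All 5 were low in both cKO libraries by a similar amount, and 4 libraries hold little more than that. Among the other 8 genes of the axis, Pik3ip1 ranked 4th, Pik3r1 44th and Inpp5d 258th by this distance, and Akt1 was farthest at 7177th.

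Downstream of Akt, in the list of the mTORC1 arm and other Akt substrates, 14 of 15 genes were tested. Of these 5 were above and 9 below 0, with a median of -0.04, and 10 of the 14 overlapped between groups, near the 73.6% of all genes. Sgk1, a kinase related to Akt that also phosphorylates Foxo factors, stood at 3.88 and 3.48 RPKM in cKO and at 4.46 and 6.02 RPKM in WT. Gsk3b, a kinase that Akt inhibits, stood at 13.5 and 13.9 RPKM in cKO and at 15.6 and 15.5 RPKM in WT. Tbc1d7, a subunit of the TSC complex, was on the higher side, at 1.66 and 2.27 RPKM in cKO and 1.07 and 1.38 RPKM in WT. Tsc1 and Tsc2 differed by -0.05 each on the log2 scale and overlapped between groups.

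In the list of receptors and proximal signals that feed PI3K, 14 of 16 genes were tested, 4 above and 10 below 0, with a median of -0.14. In 5 of the 14 the cKO libraries lay below the WT libraries, beside 9.06% of all genes, and in 0 above, beside 17.4%. Il7r, the interleukin 7 receptor alpha chain, had a cKO mean at 0.421 of the WT mean, with 33.6 and 47.7 RPKM in cKO and 94.2 and 98.9 RPKM in WT. Cblb, a ubiquitin ligase that restrains signalling from the T cell receptor and CD28, stood at 20.3 and 24.1 RPKM in cKO and at 28.4 and 29.4 RPKM in WT. Trat1, a transmembrane adaptor of T cells that can bind PI3K, stood at 45.4 and 51.4 RPKM in cKO and at 55.4 and 63.3 RPKM in WT. Cd28, the costimulatory receptor that recruits PI3K, overlapped between groups at 42.2 and 54.7 RPKM in cKO and 46.0 and 61.4 RPKM in WT.

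**Figure D4:**
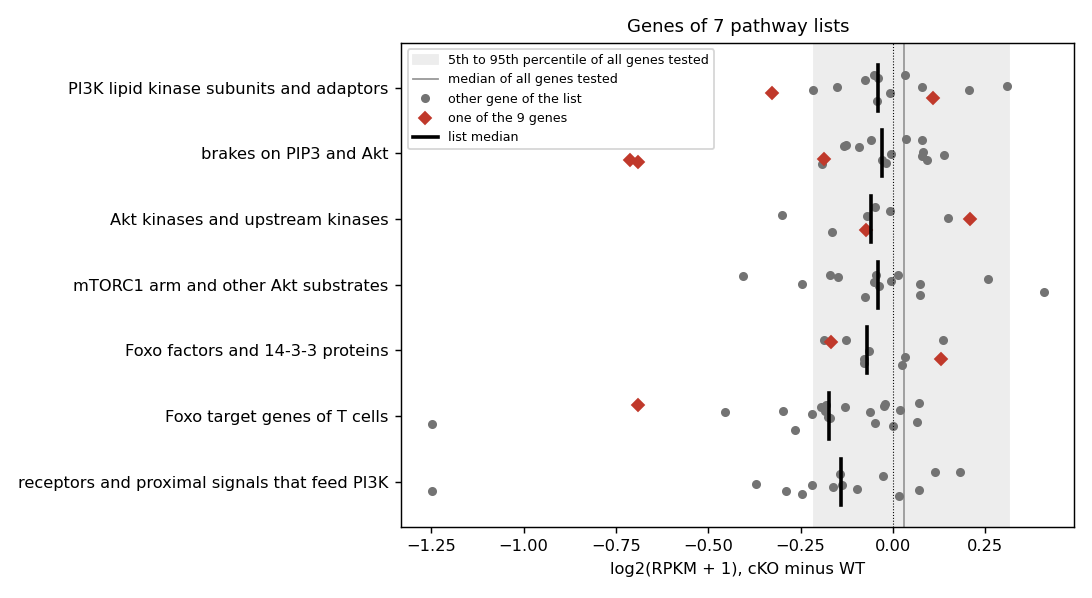
Difference in log2(RPKM + 1), cKO minus WT, of every tested gene in 7 pathway lists; diamonds are genes of the 9, black bars list medians, and the grey band the 5th to 95th percentile of all genes tested. The medians run from -0.17 for Foxo target genes to -0.03 for the brakes, beside 0.03 for all genes.

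Genes described as Foxo targets in T cells had the lowest median of the 7 lists with all libraries, but not without every library. Without cKO replicate 1 their median was -0.12 and that of the receptors -0.19, and without WT replicate 2 the Foxo targets, at -0.123, stood above the receptors, at -0.135, and the mTORC1 arm, at -0.124. Of 21 listed, 20 were tested, 4 above and 16 below 0, with a median log2 difference of -0.17. Both cKO libraries lay below both WT libraries for 9 of the 20 and above for 1, where 9.06% of all genes were below and 17.4% above. None passed limma's adjusted threshold, and 3 had an unadjusted p under 0.05, all on the lower side, where 0.99% of all genes were. These were Il7r and Pik3ip1, given above, and Bcl2l11, which encodes the pro-apoptotic protein Bim. Bcl2l11 stood at 15.0 and 15.8 RPKM in cKO and at 22.03 and 20.9 RPKM in WT, 71.8% of the WT mean. The list was written with earlier values of Il7r and Pik3ip1 known and is not independent evidence of a direction.

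The genes of the list differed among themselves. The following genes were chosen after their values were seen. Bcl6, a transcriptional repressor, stood at 8.25 and 7.54 RPKM in cKO and at 10.1 and 9.71 RPKM in WT. Cdkn1b, the cell cycle inhibitor p27, stood at 81.6 and 78.0 RPKM in cKO and at 89.3 and 93.8 RPKM in WT. Sesn3, a stress-responsive sestrin, stood at 48.0 and 52.8 RPKM in cKO and at 54.7 and 59.4 RPKM in WT. These were small gaps in the lower direction, with the groups apart. Of the homing and recirculation genes, Klf2 and S1pr1 overlapped between groups. Klf2, a transcription factor that drives several of them, stood at 232 and 171 RPKM in cKO and at 218 and 199 RPKM in WT. The sphingosine phosphate receptor gene S1pr1 stood at 118 and 123 RPKM in cKO and at 116 and 129 RPKM in WT. Ccr7, the lymph node homing receptor, stood at 125 and 124 RPKM in cKO and at 123 and 115 RPKM in WT, with the groups just apart on the higher side. For Klf2 the 95% interval of the log2 difference from limma was -0.51 to 0.38, which holds differences in either direction. With 2 libraries a group no gene of any size of difference was called, so overlap does not show that a gene was unchanged.

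**Figure D5:**
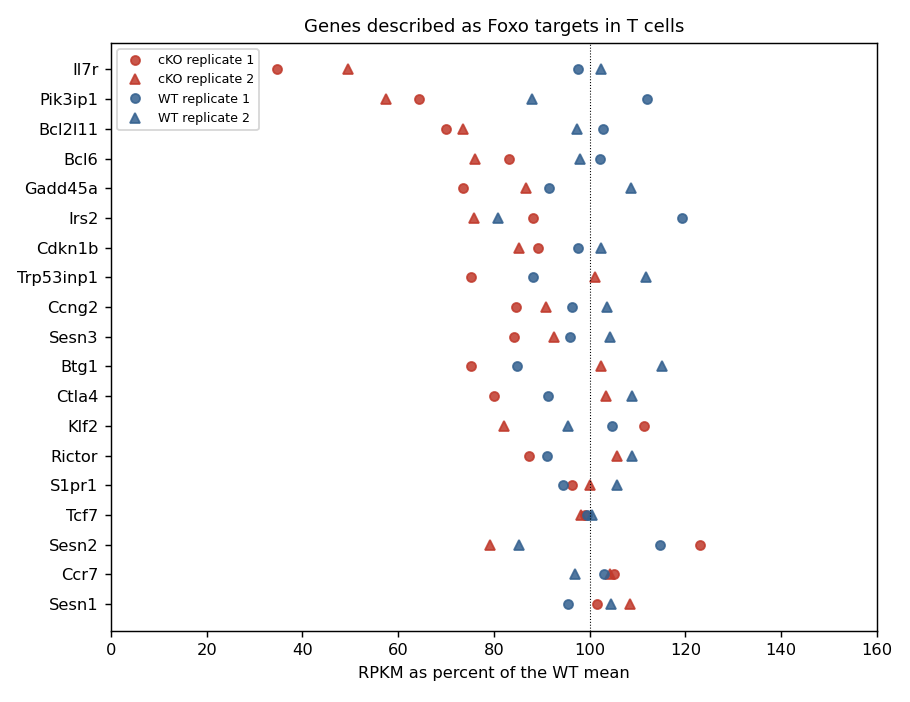
RPKM of genes described as Foxo targets, as percent of each gene's WT mean, in the 2 cKO libraries and the 2 WT libraries (circles replicate 1, triangles replicate 2), ordered by their log2 difference. Il7r, Pik3ip1 and Bcl2l11 at the top are lowest in cKO, while the cKO libraries of Klf2 and S1pr1 lie on both sides of 100.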

How the data were processed

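RNA-seq was measured in 4 libraries of splenic Treg cells, 2 cKO and 2 WT. The authors deposited RPKM values for RefSeq transcripts; the unit comes from the values themselves. The submitters' processing notes name HISAT2, DESeq2 and mm10, without version or role; how reads were counted, filtered or assigned by strand is not stated in the labels. No deposited row was at 0 in all libraries.

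Depth was read as the number of reads at which low values fall on whole reads, with transcript lengths of GENCODE M21; a whole read was met to 0.1 by 63.2% to 64.9% of low values (20% by chance). Read numbers and counting error derived from it are approximate; in cKO replicate 1 a doubled depth met the steps nearly as well, and the lower was kept. Rows were matched to genes by accession (16720) or name (1402); 1169 rows without a gene name, 10.9% of the RPKM, were left out. Each gene was represented by its row of highest mean, and the 10709 genes whose mean reached 1 RPKM entered limma 3.58.1 (R 4.3.3) as log2(RPKM + 1) values, with moderation by trend and robust settings, two-sided p-values and Benjamini-Hochberg adjustment at 0.05. The scripts were tested on simulated data. Coordinates are RefSeq's on GRCm38.p6, the assembly of mm10. Protein sequence features were not analysed here, and some genes of the lists enter the counts but are not reported by name.

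The 9 genes and the lists were chosen with earlier results of these data known. Beside them, the genes named were Nsd2, up to 3 genes of lowest p per pathway list, and the 5 most like Phlpp1; others named were chosen after their values were seen or show a step of the pathway. Other scaling, pseudocounts, filters, row choice, the replicate number as a block and each library left out were tried. Figures were drawn with matplotlib 3.10.9.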

Additional observations from a re-analysis of the deposited data

How the results depend on the processing

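Phlpp1, Pik3ip1, Pik3r1 and Inpp5d kept a lower level in cKO, and Akt1 and Foxo1 a higher one, under all 12 alternatives run for them. Filters, the moderation settings and the replicate block cannot change a gene's log2 difference, so those alternatives say nothing of its direction. With all 4 libraries, 0 of the 9 genes passed under any setting. Leaving out each library in turn gave -0.78 to -0.64 for Phlpp1, 0.08 to 0.34 for Akt1 and 0.04 to 0.22 for Foxo1. With 1 library against 2, groups lie apart more easily for any gene, so a count of genes apart is not given. Leaving out cKO replicate 1 gave 21 called genes and cKO replicate 2 gave 65, while WT replicate 1 gave 66 and WT replicate 2 gave 40, with 1 group then a single library assumed to vary like the others. The direction turned for Akt2 (-0.231 to 0.0843; above 0 without WT replicate 1, 0.0547, or cKO replicate 2), Foxo3 (-0.379 to 0.0454; above 0 without the same libraries, 0.0235 for WT replicate 1) and Pik3cd (-0.0836 to 0.300; below 0 without cKO replicate 1). The kinase side minus brakes and Foxo factors was 0.27 to 0.33 over libraries left out and 0.0533 without Phlpp1 and Pik3ip1. Its genes were chosen with earlier results known, so the narrow range over libraries is a description and no independent evidence.

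List medians were small and moved with the libraries left out: -0.0516 to 0.0219 for Akt and upstream kinases, -0.12 to -0.00098 for Foxo factors and 14-3-3 proteins, -0.23 to -0.12 for Foxo targets, -0.0934 to -0.0011 for PI3K subunits, -0.13 to 0.0091 for the brakes, -0.12 to 0.0091 for the mTORC1 arm and -0.19 to -0.11 for the receptors. The Akt list was at -0.0277 without a filter and -0.0931 with median-of-ratios scaling, and the PI3K subunits at -0.0473 with a pseudocount of 0.1 and -0.0601 with that scaling. The cause was not tested.

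Libraries of the same number deviated together (r = 0.503 across 10709 genes), but the labels tie no number to a batch or day. With the replicate number as a block limma called 1 gene, with 1638 at an unadjusted p under 0.05; Pik3ip1 had an adjusted p of 0.0858, Phlpp1 of 0.0962 and Pik3r1 of 0.148, so the block changed no adjusted call among the 9. At an unadjusted p under 0.05 the block fit had 6 of the 9 genes (Akt1, Foxo3 and Inpp5d beside these 3), against 15.3% of all genes.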

Other observations

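Of the 9 genes, 3 (Akt2, Foxo3 and Pik3cd) were ordered by replicate number and not by genotype, with both libraries numbered 1 above both numbered 2; 28.9% of all genes tested were ordered this way and 31.9% the other way. For Akt2 the library numbered 2 was at 80.0% of number 1 in cKO and 83.5% in WT, and for Pik3cd at 76.5% in cKO and 87.4% in WT.

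Ratios of 2 genes within a library cancel its scaling. Phlpp1 over Akt1 was 0.0979 and 0.110 in cKO and 0.204 and 0.220 in WT, and Pik3ip1 over Pik3cd was 0.218 and 0.255 in cKO and 0.437 and 0.394 in WT. Akt2 over Akt1 was 1.08 and 0.937 in cKO and 1.22 and 1.23 in WT, so the kinase pair was nearly even in cKO. Foxo3 over Foxo1 was 0.395 and 0.281 in cKO and 0.504 and 0.336 in WT, which overlapped. The pairs were chosen after the values were seen.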
